A study of Mus musculus with 16 samples.

Results

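Scavenger receptors are described here through 7 genes, Msr1, Marco, Cd36, Scarb1, Stab1, Mrc1 and Lrp1, which were taken by symbol from the 55665 gene records of the deposited count table. Of these 7 genes, 6 had counts and passed the low-count filter that left 13107 genes for testing, and Marco had no count in any library. Gene expression was measured by RNA sequencing of polyadenylated RNA in RAW264.7, a widely used mouse line of macrophage character that derives from a tumour raised with the Abelson leukaemia virus. There were 4 groups of 4 libraries, 16 in all: the unmodified line (Parental), the line with knockdown of ORP5 and ORP8 (ORP5/8 KD), a line with knockdown of flippases (ATP11A/C KD) and the line with knockdown of CDC50A (CDC50A KD). All were grown in complete medium and collected on the day after plating, with no cargo or other treatment named. Parental names no construct, so a KD group differs from it by any construct it carries as well as by its target, and those cannot be told apart here. Replicates carry numbers in the labels, with no word on whether each was its own culture or clone, so the p-values cover the variation of these libraries only, and that may be technical.

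Scavenger receptors are membrane proteins of unrelated structure that share a taste for modified lipoproteins, polyanions, dying cells and microbial surfaces. Macrophages use them to bind, internalise and clear such ligands, and lipid taken up through them feeds lysosomal hydrolysis, storage in droplets and efflux. Several also bind phosphatidylserine, the lipid whose distribution ORP5, ORP8 and the flippases control: ORP5 and ORP8 carry it to the plasma membrane from the endoplasmic reticulum, where it is made, ATP11A flips it to the inner leaflet, and CDC50A is the subunit that such flippases need to leave the endoplasmic reticulum. By its title the series is about phosphatidylserine clustering by receptors and LC3-associated phagocytosis.

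Msr1 (class A receptor SR-A1) and Marco, its close relative, are trimeric collagen-like receptors of polyanions. Cd36 and Scarb1 (SR-B1) are class B receptors, which span the membrane at both ends, the first a carrier of fatty acids and oxidised lipoprotein and the second the receptor for high-density lipoprotein. Stab1 (stabilin-1, class H) is a large endocytic receptor that binds phosphatidylserine on dying cells. Mrc1 (CD206) is the mannose receptor, a C-type lectin and a textbook marker of alternatively activated macrophages, and Lrp1 (class L) is a very large endocytic receptor for protease complexes, apolipoprotein E and calreticulin-marked cells.

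Coordinates are those of GENCODE M21 on GRCm38 (mm10). Msr1 (ENSMUSG00000025044.16) lies on chromosome 8, 39581685 to 39642673, minus strand, and Marco (ENSMUSG00000026390.7) on chromosome 1, 120474538 to 120505024, minus strand. Both class B genes lie on the minus strand of chromosome 5, Cd36 (ENSMUSG00000002944.15) at 17781690 to 17888801 and Scarb1 (ENSMUSG00000037936.15) at 125277087 to 125341094. Stab1 (ENSMUSG00000042286.13) lies on chromosome 14, 31139013 to 31168641, minus strand, and Mrc1 (ENSMUSG00000026712.3) on chromosome 2, 14229392 to 14332057, plus strand. Lrp1 (ENSMUSG00000040249.15) lies on chromosome 10, 127538161 to 127621148, minus strand. Some of them share ground with other genes: Scarb1 with Gm42633 and Mrc1 with Mir511 on the same strand, Stab1 with Nt5dc2 and Lrp1 with Gm16217 on the opposite strand. The library kit marks the strand, per the labels' protocols, and same-strand reads in a shared stretch could be split between the genes.

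The RefSeq promoter table for GRCm38.p6 held a window for 5 of the 7 genes, all but Msr1 and Scarb1. The 250 bases upstream of the start are printed for Stab1 and Mrc1, which were lowest in the flippase-related groups (ATP11A/C KD and CDC50A KD), and for Cd36, which was lower in ORP5/8 KD and not called in those groups. Each is given 5′ to 3′ on the strand of its gene, with capitals for any motif match. The windows are chr14:31168642-31168891 (minus strand) for Stab1, chr2:14229164-14229413 (plus strand) for Mrc1 and chr5:17835897-17836146 (minus strand) for Cd36, the last at a start inside the span of the gene. The end of the Mrc1 window also lies inside the GENCODE span of Mrc1, which starts at 14229392.
Stab1: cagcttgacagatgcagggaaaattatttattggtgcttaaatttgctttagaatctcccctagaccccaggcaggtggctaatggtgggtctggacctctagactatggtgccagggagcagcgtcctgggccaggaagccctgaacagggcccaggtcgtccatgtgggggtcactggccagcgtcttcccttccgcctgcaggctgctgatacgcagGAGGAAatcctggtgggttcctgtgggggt
Mrc1: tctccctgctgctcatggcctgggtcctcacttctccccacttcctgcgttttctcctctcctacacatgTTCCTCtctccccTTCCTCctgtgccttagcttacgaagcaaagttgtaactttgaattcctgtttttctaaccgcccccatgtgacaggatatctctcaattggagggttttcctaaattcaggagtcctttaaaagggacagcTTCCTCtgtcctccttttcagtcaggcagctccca
Cd36: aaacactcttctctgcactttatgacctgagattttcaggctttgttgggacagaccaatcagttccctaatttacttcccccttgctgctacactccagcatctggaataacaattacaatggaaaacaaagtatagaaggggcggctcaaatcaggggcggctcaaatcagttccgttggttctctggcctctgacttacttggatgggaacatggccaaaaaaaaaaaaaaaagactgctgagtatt
Searched on both strands were the PU.1 core GAGGAA, the AP-1 site TGANTCA, the E-box CACGTG, the TATA box TATAAA, the NRF2-MAF element TGACNNNGC, the interferon regulatory element (GAAA repeated after 2 free bases), and direct repeats of AGGTCA with 1 free base between them (PPAR-RXR) or 4 (LXR). The PU.1 core, bound by the macrophage factor PU.1 encoded by Spi1, occurred once in the Stab1 window and 3 times in the Mrc1 window, there as its reverse complement, and once in that of Marco. The same letters occur in 23.3% of all 32851 windows of that length, so a match is common. The Lrp1 window, at 67.2% GC and with 13 CG pairs, held a single NRF2-MAF match, found in 10.2% of all windows. The Cd36 window held none of the 8 motifs, which says only that these letters are absent from these 250 bases, and no match overlapped another.

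Per length, Lrp1 and Msr1 were the most abundant of these receptors in Parental, and Stab1 and Mrc1 were trace transcripts. Levels are in counts-per-million (CPM) after TMM scaling, as mean ± SD over 4 libraries, and comparison between genes uses CPM per kb of merged exons. On that length-scaled measure Lrp1 stood at 57.2 and Msr1 at 50.7 in Parental, ranked 817 and 943 among 11185 protein-coding tested genes. Cd36 stood at 23.7 CPM per kb and Scarb1 at 21.1, while Stab1 reached 0.783 and Mrc1 0.261, ranked 9735 and 10387. Marco was at 0 counts in every library, which allows a level of up to 0.0231 CPM in Parental, 0.0189 in ORP5/8 KD, 0.0225 in CDC50A KD (3 counts over the 4 libraries of a group, counting error only) and 0.0203 in ATP11A/C KD. Of this class A pair, only Msr1 gave counts.

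**Figure D1:**
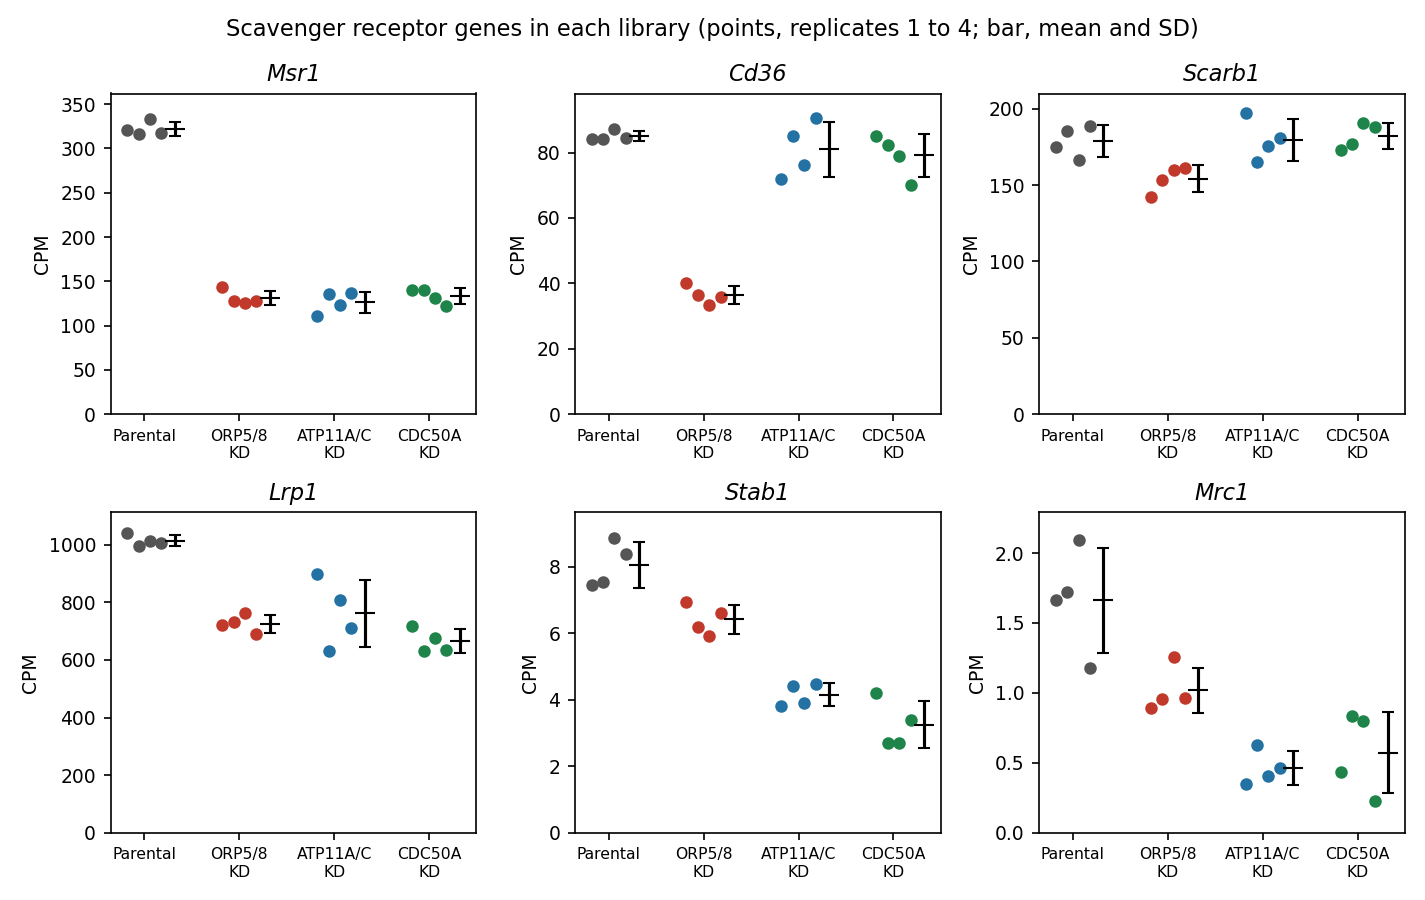
CPM of each receptor gene with counts (vertical axes, starting at 0) in each library, by group, with points for replicates 1 to 4 and a bar for the mean and SD. Msr1 lies between 110 and 143 CPM in the KD libraries against 316 to 334 in Parental, Cd36 is low in ORP5/8 KD only, and Stab1 and Mrc1 lie lowest in ATP11A/C KD and CDC50A KD.

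The libraries held 24020891 to 41543050 counts each. Macrophage markers were present (9 of the 10 listed at a mean of at least 1 CPM, none at 0 throughout), with a summed level of 11661 to 12392 CPM in Parental, 7563 to 7980 in ORP5/8 KD, 6394 to 6762 in ATP11A/C KD and 7425 to 7721 in CDC50A KD. Lyz2, the macrophage lysozyme, carried most of that difference (7207 CPM in Parental, 4168 in ORP5/8 KD, 2859 in CDC50A KD and 2582 in ATP11A/C KD). Ptprc, Itgam, Cd68, Cd14 and Fcgr1 also had lower means in every KD group. Adgre1, which encodes F4/80, had higher means in the KD groups (77.7 in ORP5/8 KD, 95.2 in CDC50A KD and 104 in ATP11A/C KD, against 67.3). Csf1r, the receptor of macrophage colony-stimulating factor, stood at 1872 in Parental, 1537 in ORP5/8 KD, 2124 in CDC50A KD and 1699 in ATP11A/C KD. Like Csf1r, Spi1 had a mean above Parental in CDC50A KD only. Of the cell types known for these receptors, sinusoidal endothelium summed to 15.4 to 34.8 CPM with Lyve1 and Clec4g at 0, adipocyte markers to 32.2 to 43.2 CPM with 6 of 8 at 0, Adipoq among them, and hepatocyte markers to at most 0.096 CPM. A single gene made up most of the endothelial sum (Fcgr2b, 30.5 CPM in Parental) and of the adipocyte sum (Lipe, 39.5 CPM in Parental). The mitochondrial share of counts averaged 1.19% ± 0.0744 (SD, n = 4) in Parental and 1.68% ± 0.112, 1.56% ± 0.194 and 1.63% ± 0.151 in the KD groups, in the order ORP5/8, ATP11A/C, CDC50A (2-sided exact permutation p = 0.0286 for each KD group against Parental, the smallest that 4 against 4 allow). Whether the macrophage-marker or mitochondrial differences had a part in the results was not tested. Of the targeted genes, Osbpl8 stood at 29.4% of its Parental mean in ORP5/8 KD, 34.5% in CDC50A KD and 37.6% in ATP11A/C KD, so it was low in every KD group, and lowest in the group named for it (adjusted p = 0.00148 and 2.64e-05 against those groups in turn). Atp11a stood at 34.9% in ATP11A/C KD, 70.1% in CDC50A KD and 86.8% in ORP5/8 KD, below both others where it is the named target (5.81e-12 and 1.72e-15). Tmem30a, which encodes CDC50A, stood at 78.6% in CDC50A KD, not called against the 80.8% of ORP5/8 KD (0.600) or the 87.9% of ATP11A/C KD (0.0566). Osbpl5 had 2 to 13 counts a library and was below the filter. A KD name below stands for the libraries that carry that label. The column of Parental 3 was matched by library name alone, as its run number is not the one in the label; without it the calls of Stab1 and Mrc1 in ORP5/8 KD were lost, and the other receptor calls against Parental held.

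Msr1 was the receptor that fell to nearly one level in all KD groups. Its CPM in Parental 1 to 4 were 321, 316, 334 and 317, in ORP5/8 KD 143, 128, 126 and 128, in ATP11A/C KD 110.4, 135, 123 and 136, and in CDC50A KD 141, 140.2, 131 and 122. No KD library came near a Parental one, while the KD groups overlapped each other throughout. The means were 322 ± 8.08 CPM in Parental, 131 ± 8.23 in ORP5/8 KD, 134 ± 8.69 in CDC50A KD and 126 ± 12.2 in ATP11A/C KD, which is 40.8% of Parental in ORP5/8 KD, 41.5% in CDC50A KD and 39.2% in ATP11A/C KD. The log2 fold changes (edgeR, ± standard error, Benjamini-Hochberg adjusted over all 13107 genes) were -1.29 ± 0.0616 in ORP5/8 KD (adjusted p = 1.82e-13), -1.27 ± 0.0618 in CDC50A KD (7.35e-13) and -1.35 ± 0.0618 in ATP11A/C KD (2.74e-13). Between KD groups the log2 differences of Msr1 were 0.06 for ORP5/8 KD minus ATP11A/C KD (95% interval -0.07 to 0.18, adjusted p = 0.514), -0.03 for ORP5/8 KD minus CDC50A KD (-0.15 to 0.10, 0.745) and 0.08 for CDC50A KD minus ATP11A/C KD (-0.05 to 0.21, 0.355). None passed the test, and the intervals leave room for differences of up to 0.21 on the log2 scale. Offsets for GC content and transcript length, given with Lrp1, brought both differences that involve CDC50A KD past it. In bulk RNA, fewer expressing cells and less RNA per cell cannot be told apart.

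Cd36 divided the groups otherwise: it fell in ORP5/8 KD and was not called in the other groups. Its CPM were 84.2, 84.0, 87.2 and 84.4 in Parental 1 to 4 and 40.2, 36.3, 33.5 and 35.8 in ORP5/8 KD, against 72.1, 85.2, 76.2 and 90.5 in ATP11A/C KD and 85.1, 82.4, 79.1 and 69.998 in CDC50A KD. Every ORP5/8 KD library lay below every other library of the study, and the rest overlapped. The mean of 36.5 ± 2.75 CPM in ORP5/8 KD was 42.9% of the Parental mean of 85.0 ± 1.52 (log2 fold change -1.22 ± 0.0699, adjusted p = 4.26e-12). In ATP11A/C KD the mean was 81.0 ± 8.38 CPM (-0.07, 95% interval -0.21 to 0.07, adjusted p = 0.452), while CDC50A KD had 79.2 ± 6.59 (-0.10, -0.24 to 0.04, 0.217). The direct tests put Cd36 in ORP5/8 KD below ATP11A/C KD by -1.15 ± 0.0698 (adjusted p = 2.77e-11), and below CDC50A KD by -1.12 ± 0.07 (2.65e-11), on the log2 scale. The Parental libraries enter those differences only through the scaling and the estimate of spread that all 16 libraries share.

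Scarb1, the other class B receptor, was also lowest in ORP5/8 KD, by a far smaller amount. Its CPM were 175, 186, 166 and 189 in Parental, 142, 153, 160.1 and 161 in ORP5/8 KD, 197, 165, 175 and 181 in ATP11A/C KD and 173, 177, 191 and 188 in CDC50A KD. All ORP5/8 KD libraries lay below all others, though the highest of them, at 161 CPM, was close to ATP11A/C KD 2 at 165 and Parental 3 at 166. The log2 fold change in ORP5/8 KD was -0.21 ± 0.056 (adjusted p = 0.00345), from 179 ± 10.3 to 154 ± 8.63 CPM. For ATP11A/C KD it was 0.0047 (95% interval -0.11 to 0.12, adjusted p = 0.960), and for CDC50A KD 0.02 (-0.09 to 0.14, 0.736). Directly compared, Scarb1 in ORP5/8 KD was below ATP11A/C KD by -0.22 ± 0.0559 (adjusted p = 0.00356), and below CDC50A KD by -0.24 ± 0.056 (0.0011).

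Stab1 was graded, from Parental through ORP5/8 KD to the flippase-related groups. Its CPM were 7.45, 7.53, 8.87 and 8.38 in Parental, 6.94, 6.19, 5.92 and 6.61 in ORP5/8 KD, 3.81, 4.42, 3.89 and 4.47 in ATP11A/C KD and 4.196, 2.71, 2.696 and 3.39 in CDC50A KD. The groups other than the last pair did not overlap, and ATP11A/C KD and CDC50A KD did. These levels rest on 62 to 278 counts a library. Against 8.05 ± 0.687 CPM in Parental, the mean was 3.25 ± 0.709 in CDC50A KD (-1.29 ± 0.123, 2.86e-08) and 4.15 ± 0.344 in ATP11A/C KD (log2 fold change -0.96 ± 0.119, adjusted p = 1.38e-06). The smaller difference in ORP5/8 KD, at 6.41 ± 0.450 CPM (-0.33 ± 0.114, adjusted p = 0.0236), lost its call when Parental 3, Parental 4, ORP5/8 KD 2 or ORP5/8 KD 3 was left out (adjusted p between 0.0575 and 0.0804) and with upper-quartile scaling (0.0707). ORP5/8 KD stood above ATP11A/C KD by 0.63 ± 0.119 (adjusted p = 0.000221) and above CDC50A KD by 0.96 ± 0.123 (1.30e-06) on the log2 scale. The step from ATP11A/C KD to CDC50A KD, -0.33 (95% interval -0.59 to -0.06), missed the threshold at an adjusted p of 0.0614, and passed it without ATP11A/C KD 1 (0.0452) or CDC50A KD 1 (0.00734).

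Mrc1 had the same 2 tiers at a still lower level. In counts, Parental 1 to 4 held 54, 63, 58 and 39, ORP5/8 KD 34, 41, 51 and 36, ATP11A/C KD 14, 21, 17 and 15, and CDC50A KD 17, 19, 26 and 9. In CPM that was 1.66, 1.72, 2.09 and 1.18 in Parental, 0.894, 0.957, 1.25 and 0.967 in ORP5/8 KD, 0.346, 0.631, 0.408 and 0.465 in ATP11A/C KD and 0.438, 0.832, 0.796 and 0.229 in CDC50A KD. The ATP11A/C KD and CDC50A KD libraries lay below all Parental and ORP5/8 KD libraries, whereas ORP5/8 KD 3 lay above Parental 4. Against 1.66 ± 0.377 CPM in Parental, Mrc1 fell to 0.463 ± 0.122 in ATP11A/C KD (log2 fold change -1.85 ± 0.302, adjusted p = 4.82e-05) and to 0.574 ± 0.291 in CDC50A KD (-1.59 ± 0.300, 0.000168). In ORP5/8 KD it stood at 1.02 ± 0.160 CPM (-0.70 ± 0.271, adjusted p = 0.0398), a call that was lost without any of Parental 1, 2 or 3 or ORP5/8 KD 1, 2 or 4 (0.0765 to 0.125) and with upper-quartile scaling (0.0601). Mrc1 in ORP5/8 KD stood above ATP11A/C KD by 1.15 ± 0.309 (adjusted p = 0.00526), and above CDC50A KD by 0.89 ± 0.308 (0.0181). The latter was lost without ORP5/8 KD 3, CDC50A KD 1 or CDC50A KD 4 (0.0555 to 0.0691).

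Lrp1, the most abundant of these receptors in Parental per length, fell in every KD group, to between 65.6% and 75.2% of its Parental mean. Its CPM were 1039.8, 995, 1014 and 1006 in Parental, 719.7, 730.2, 764 and 689 in ORP5/8 KD, 899, 631, 809 and 712 in ATP11A/C KD and 718, 630.0, 678 and 635 in CDC50A KD. No KD library reached a Parental one, and ATP11A/C KD spread most widely. The means were 1014 ± 19.1 CPM in Parental, 726 ± 31.1 in ORP5/8 KD, 665 ± 41.4 in CDC50A KD and 763 ± 116 in ATP11A/C KD, and the log2 fold changes -0.48 ± 0.0737 in ORP5/8 KD (adjusted p = 1.50e-05), -0.61 ± 0.0739 in CDC50A KD (8.77e-07) and -0.41 ± 0.0737 in ATP11A/C KD (0.000144). Between CDC50A KD and ATP11A/C KD the difference was -0.20 (95% interval -0.35 to -0.04, adjusted p = 0.0529), and leaving out ATP11A/C KD 2, ATP11A/C KD 4 or CDC50A KD 1 brought it past the threshold (0.00203 to 0.0449). Of the 16 alternative fits of this difference, only 6 left it uncalled, and over all of them it ranged from -0.28 to -0.12. The intervals for ORP5/8 KD against the other KD groups were -0.23 to 0.08 (adjusted p = 0.476, ATP11A/C KD) and -0.03 to 0.28 (0.153, CDC50A KD).

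Within ATP11A/C KD the libraries had the same order in Lrp1 and in base composition, which was not so in the other groups. The longest Lrp1 transcript has 14888 bases at 57.89% GC, which puts it among the GC-richest genes (54.44% or more), while those of Msr1 and Cd36 have 38.37% and 38.39%. In ATP11A/C KD 1, 3, 4 and 2 the median log2 deviation of those GC-richest genes from their mean over all libraries was 0.127, 0.0271, -0.0202 and -0.0847, the same order as Lrp1. Genes with transcripts of 10 kb or longer deviated by 0.0106, 0.0473, 0.0128 and -0.0675 there, also lowest in ATP11A/C KD 2. Their deviation was -0.150 to -0.0494 in CDC50A KD, -0.000803 to 0.136 in ORP5/8 KD and -0.0219 to 0.0516 in Parental. In Parental the deviation of the GC-richest genes was highest in Parental 2 (-0.0239), where Lrp1 was lowest. In CDC50A KD the deviation was highest in CDC50A KD 3 (0.0620), but Lrp1 in CDC50A KD 1. ORP5/8 KD 3 was highest in both (0.0900 for the deviation), with another order below it. Whether GC content or length set the spread of Lrp1 was not tested, nor were their parts told apart. Msr1 and Cd36 were lowest in ATP11A/C KD 1. With offsets for GC content and transcript length, chosen after seeing the data, Lrp1 in ATP11A/C KD 1 to 4 came to 775, 738, 761 and 714 CPM, and its group means to 1050.3 ± 27.2 in Parental, 695 ± 19.8 in ORP5/8 KD, 685 ± 16.2 in CDC50A KD and 747 ± 26.7 in ATP11A/C KD. The SD thus fell in each KD group and rose in Parental, from 19.1 CPM. The log2 fold changes of Lrp1 against Parental then came to -0.59 in ORP5/8 KD, -0.62 in CDC50A KD and -0.49 in ATP11A/C KD. The difference of CDC50A KD from ATP11A/C KD came to -0.13 (adjusted p = 0.00526). That of ORP5/8 KD from ATP11A/C KD came to -0.10 (adjusted p = 0.0123), also past the threshold. Under the same offsets 2 differences of Msr1 between KD groups passed it, 0.13 for CDC50A KD minus ATP11A/C KD (adjusted p = 0.0129) and -0.10 for ORP5/8 KD minus CDC50A KD (0.0346).

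**Figure D2:**
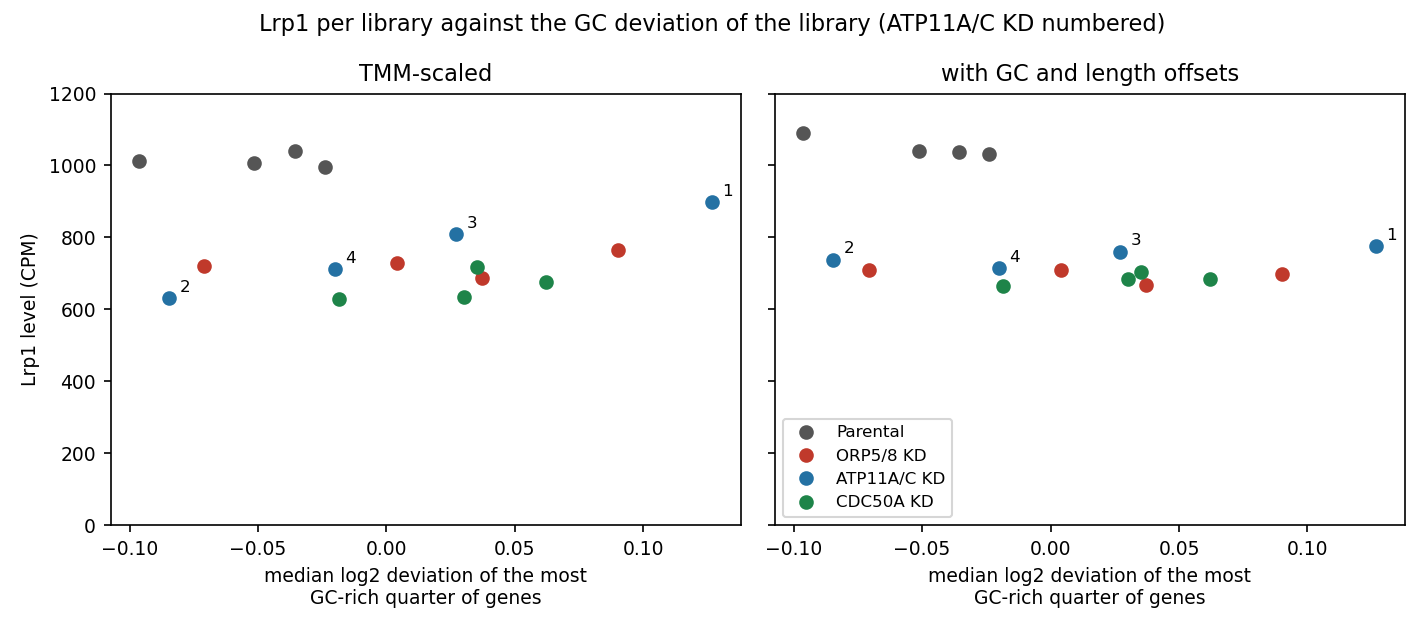
Lrp1 CPM per library (vertical axis) against the median log2 deviation of the GC-richest genes in that library (horizontal axis), with TMM scaling (left) and with GC and length offsets (right); ATP11A/C KD libraries carry their replicate numbers. The ATP11A/C KD points range from 631 to 899 CPM on the left and from 714 to 775 on the right, and all KD points stay below Parental in both panels.

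**Figure D3:**
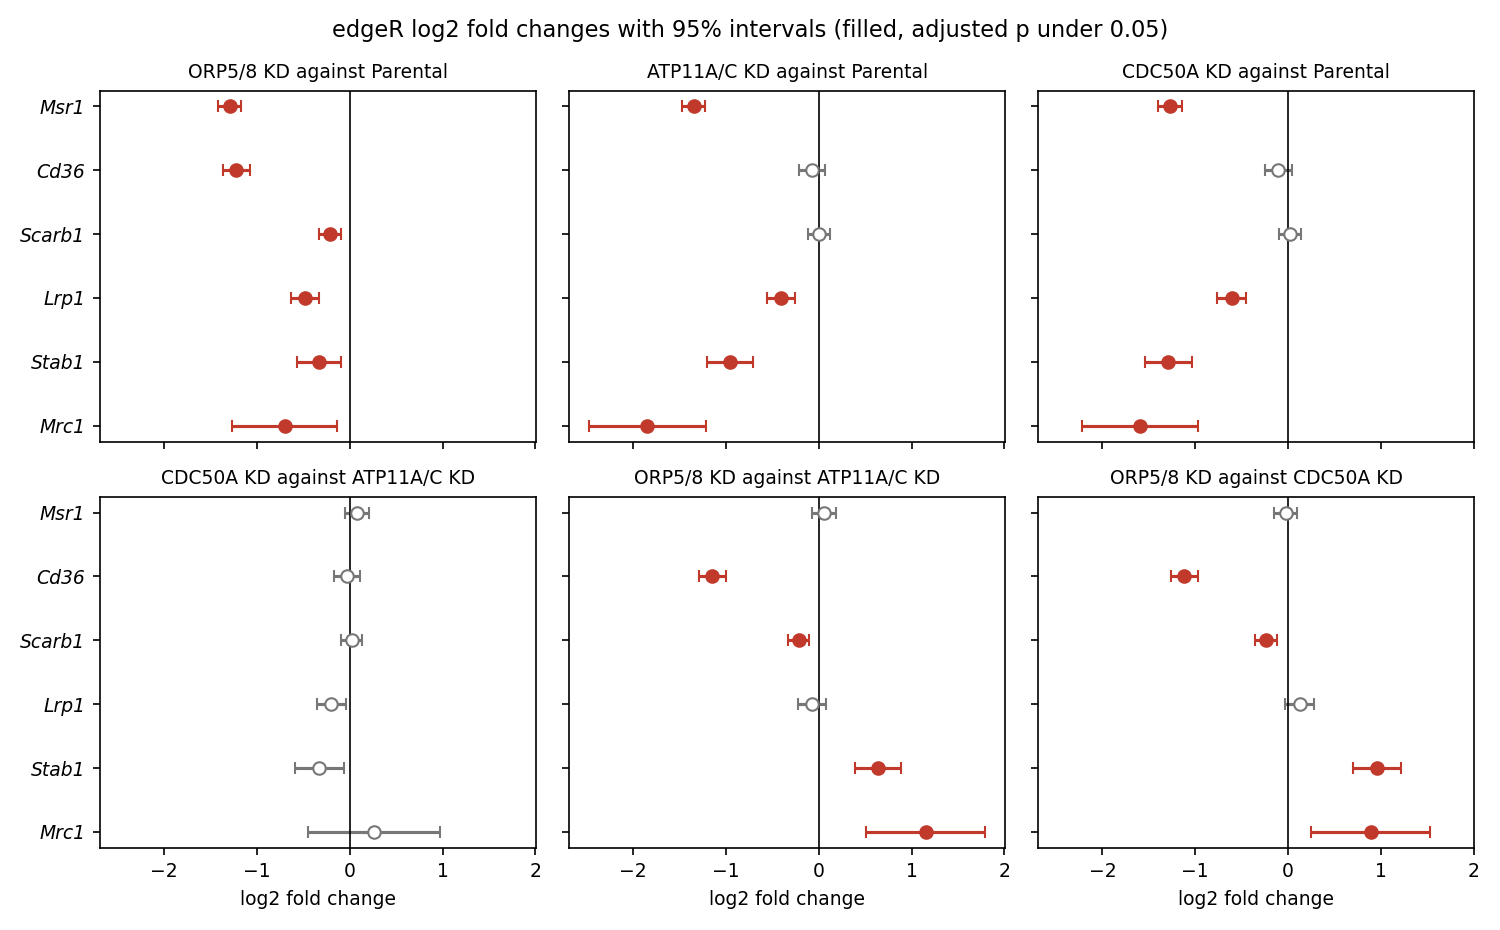
edgeR log2 fold changes (horizontal axes) with 95% intervals for the 6 tested receptors in all 6 comparisons; filled points passed an adjusted p of 0.05. Filled points lie left of 0 in the top row, with Cd36 and Scarb1 open for ATP11A/C KD and CDC50A KD, and on both sides in the comparisons of ORP5/8 KD with the other KD groups.

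Counted over the family, 6 of the 6 tested genes were lower in ORP5/8 KD than in Parental, where 24.3% of all tested genes were called lower and 46.2% in either direction. With any 1 of the 8 libraries left out that count was 4 to 5, as Stab1, Mrc1 or both lost their call. Both also lost it with upper-quartile scaling. In ATP11A/C KD 4 were lower and 2 not called, beside 20.2% of all tested genes called lower and 37.6% in either direction. In CDC50A KD 4 were lower and 2 not called, beside 26.1% called lower and 50.4% in either direction. These comparisons share the Parental libraries. The median log2 fold change of the 6 genes was -0.59 in ORP5/8 KD, -0.69 in ATP11A/C KD, both beside medians over all tested genes of 0.02 and 0.01, and -0.94 in CDC50A KD beside -0.0098. Changes of at least 2-fold downward were called for Msr1 and Cd36 in ORP5/8 KD, Msr1 and Mrc1 in ATP11A/C KD, and Msr1, Stab1 and Mrc1 in CDC50A KD, beside 4.21%, 3.55% and 4.8% of all tested genes. Libraries of a KD group did not overlap Parental for 5 of the 6 genes in ORP5/8 KD, all but Mrc1, and for the 4 called genes in the other groups; of all tested genes, 23.5% lay wholly below Parental in ORP5/8 KD, 24.8% in CDC50A KD and 19.0% in ATP11A/C KD.

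Between ORP5/8 KD and each other KD group, the called receptors went in both directions, as did the called genes among all tested. Against ATP11A/C KD, ORP5/8 KD had 2 receptors lower (Cd36 and Scarb1) and 2 higher (Stab1 and Mrc1), where 20.4% of all tested genes were called lower and 18.2% higher, 38.7% in all. Against CDC50A KD the same 4 genes were called in the same directions, 33.3% of the 6 each way. Of all tested genes, 29.4% were called lower and 27.5% higher there, 56.8% in all, so these counts were near the background. The comparisons share the ORP5/8 KD libraries. Msr1 and Lrp1 did not pass in either. Between CDC50A KD and ATP11A/C KD, edgeR called 0 of the 6 receptors, where 26.2% of all tested genes were called. Lrp1 and Stab1 had an unadjusted p under 0.05 there, 2 of 6, beside 5013 of all 13107 tested genes. The Wald test of DESeq2 called 2 of the 6, beside 3701 of the 13107, so both counts were near the background.

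Summed over the family on the length scale, these receptors made up 154 ± 1.15 CPM per kb in Parental, 90.7 ± 1.53 in ORP5/8 KD, 102 ± 4.26 in CDC50A KD and 107 ± 4.72 in ATP11A/C KD. The sum is set by the abundant members, and its makeup differed. Msr1 held 33.0% of it in Parental, 22.8% in ORP5/8 KD, 20.5% in CDC50A KD and 18.7% in ATP11A/C KD. Cd36 went from 15.4% to 11.2% in ORP5/8 KD but to 21.5% in CDC50A KD and 21.1% in ATP11A/C KD. Lrp1 had the largest mean share in each group, at 37.2% in Parental, 45.1% in ORP5/8 KD, 36.6% in CDC50A KD and 40.1% in ATP11A/C KD.

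**Figure D4:**
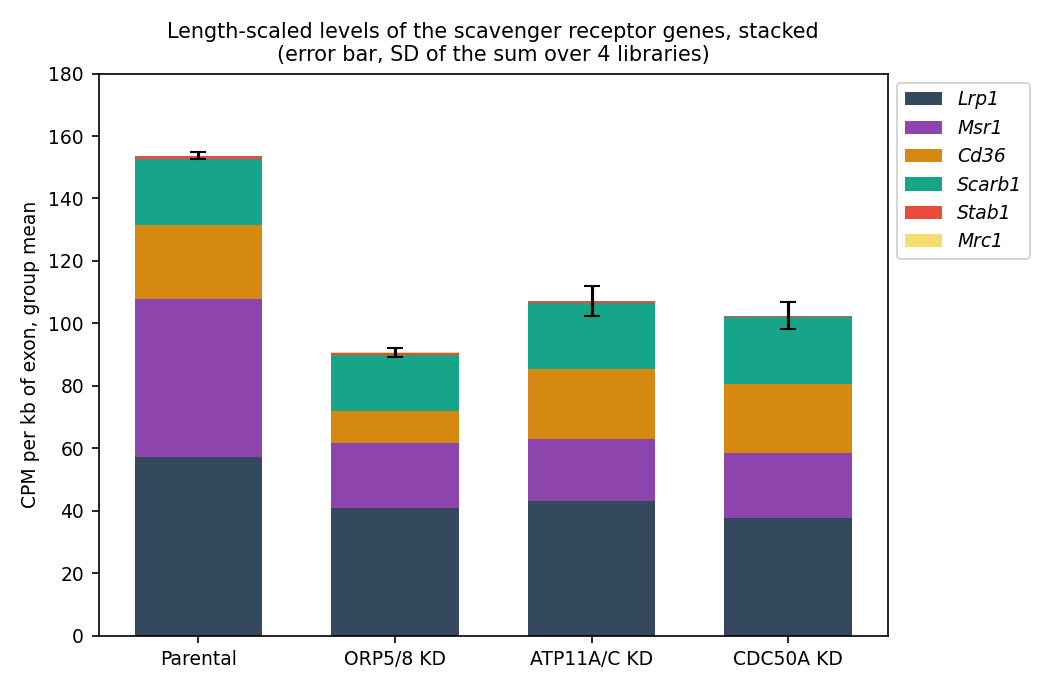
Mean CPM per kb of merged exon for the 6 receptors with counts, stacked by group (vertical axis from 0), with the SD of the sum over 4 libraries. The stacks reach 154 in Parental, 90.7 in ORP5/8 KD, 102 in CDC50A KD and 107 in ATP11A/C KD, and the Cd36 band is thinnest in ORP5/8 KD.

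For the members whose group means ranged over at least 1 on the log2 scale, the 3 closest protein-coding genes among 8397 with a mean of at least 10 CPM were found by the root mean square distance of the 4 centred log2 group means, a likeness over 4 points only. Closest to Msr1 were Rasgef1b (distance 0.0450), Metrnl (0.0893) and Fam20c (0.0941). Closest to Cd36 were Relb (0.0276), a subunit of NF-kB, Fcrl1 (0.0941) and Dab2 (0.105), the endocytic adaptor, which stood at 255, 91.1, 203 and 214 CPM in Parental, ORP5/8, ATP11A/C and CDC50A KD. Closest to Stab1 were Tef (0.0411), Gk5 (0.0532) and P2rx4 (0.0674), and to Mrc1 Rnf128 (0.0666), Pde8a (0.0896) and Lyz2 (0.127), the macrophage lysozyme, at 7207, 4168, 2582 and 2859 CPM. Scarb1 and Lrp1 ranged over 0.24 and 0.61 and were not matched.

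Other scavenger receptors of classes A to L were also mostly lower. Of 22 listed, 4 had no count anywhere and 11 were tested: 9 were lower in ORP5/8 KD (median log2 fold change -0.37), 9 in CDC50A KD (-0.28) and 8 in ATP11A/C KD (-0.37), and the rest did not pass. That is 81.8%, 81.8% and 72.7% of them, beside 24.3%, 26.1% and 20.2% of all tested genes called lower. Cd44, the hyaluronan receptor, fell from 310 ± 8.34 CPM in Parental to 153 ± 6.09 in ORP5/8 KD (log2 fold change -1.02), 224 ± 14.1 in CDC50A KD (-0.47) and 206 ± 7.57 in ATP11A/C KD (-0.59). Clec7a (dectin-1, the beta-glucan receptor) stood at 19.6 CPM in Parental and fell to 11.9 in CDC50A KD (-0.72) and 10.7 in ATP11A/C KD (-0.88), with 22.1 in ORP5/8 KD (not called, adjusted p = 0.0552). In ORP5/8 KD Cxcl16, a membrane chemokine that binds oxidised lipoprotein, fell from 66.1 to 41.4 CPM (-0.68), and Lrp8, a receptor of lipoproteins and reelin, from 89.0 to 68.8 (-0.37). Colec12 (SR-A4) fell from 468 to 347 CPM in ATP11A/C KD (-0.43) and the lysosomal Scarb2 from 86.0 to 66.7 (-0.37). Scarf1, which binds the complement protein C1q on dying cells, stood at 1.03 CPM in Parental, 0.0945 in ORP5/8 KD, 0.0372 in CDC50A KD and 0.120 in ATP11A/C KD. Ssc5d stood at 3.68 CPM in Parental, 1.55 in ORP5/8 KD, 1.49 in CDC50A KD and 1.55 in ATP11A/C KD. Cxcl16, Colec12, Scarb2, Scarf1 and Ssc5d were called lower in every KD group, and Lrp8 in ORP5/8 KD only.

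Of 10 lectins related to Mrc1 or sharing its ligands, only Clec10a, a galactose-binding lectin, was tested. Its level was 2.71 ± 0.34 CPM in Parental, 2.46 ± 0.285 in ORP5/8 KD, 1.00 in CDC50A KD and 0.718 ± 0.124 in ATP11A/C KD. It fell in CDC50A KD (log2 fold change -1.45) and ATP11A/C KD (-1.92) and was not called in ORP5/8 KD (-0.14, adjusted p = 0.471). Alternative activation markers gave no single direction, with 5 of 12 listed genes tested. In ORP5/8 KD 2 were higher and 2 lower, and in each of the other groups 1 was higher and 2 lower. Of all tested genes, 46.2% were called in ORP5/8 KD, 50.4% in CDC50A KD and 37.6% in ATP11A/C KD against Parental. With only 5 genes tested, the count in CDC50A KD was near that background. Il4ra, the interleukin-4 receptor, rose from 4.61 CPM to 7.28 in ORP5/8 KD, 7.80 in CDC50A KD and 8.94 in ATP11A/C KD, and the inhibitory receptor Cd200r1 fell from 20.9 CPM to 10.2 in ORP5/8 KD, 5.15 in CDC50A KD and 7.09 in ATP11A/C KD.

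**Figure D5:**
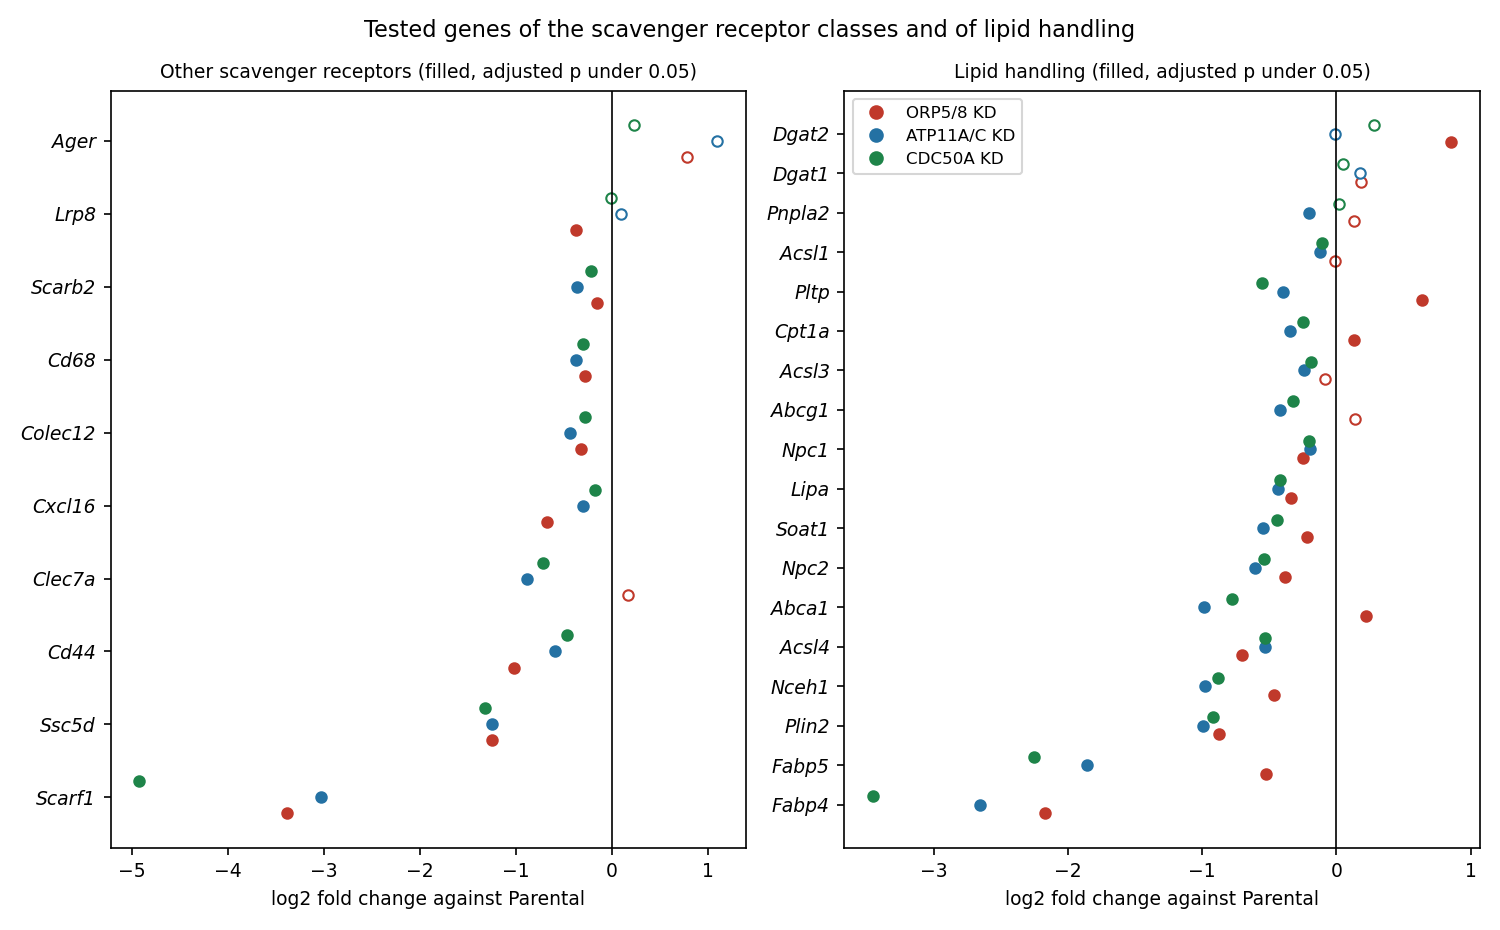
edgeR log2 fold changes against Parental (horizontal axes) of 10 of the tested genes among the other scavenger receptors (left) and of the tested genes of lipid handling (right), coloured by KD group; filled points passed an adjusted p of 0.05. Filled points on the left lie below 0, while on the right Pltp, Dgat2, Abca1 and Cpt1a lie above 0 in ORP5/8 KD.

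Most genes that handle lipid after uptake were lower in the flippase-related groups, and their directions were divided in ORP5/8 KD. All 18 listed were tested. In ORP5/8 KD 9 were lower and 4 higher (72.2% called, beside 46.2% of all tested genes). Of all tested genes 24.3% were called lower there, which leaves the 4 higher genes (22.2% of the list) near the background of higher calls. In CDC50A KD 15 were lower and none higher (83.3%, beside 26.1% called lower). In ATP11A/C KD 16 were lower and none higher (88.9%, beside 20.2%). The medians were -0.15 in ORP5/8 KD and -0.43 in each of the others. Fabp5, a fatty acid-binding protein, fell from 358 ± 15.7 CPM to 249 ± 6.50 in ORP5/8 KD (log2 fold change -0.52), 75.2 ± 5.38 in CDC50A KD (-2.25) and 98.8 ± 3.98 in ATP11A/C KD (-1.86). Fabp4 stood at 6.83 CPM in Parental, 1.51 in ORP5/8 KD (-2.17) and 0.599 in CDC50A KD (-3.45). The lipid droplet coat gene Plin2 fell from 146 CPM to 79.2 in ORP5/8 KD (-0.88), 77.0 in CDC50A KD (-0.92) and 73.1 in ATP11A/C KD (-0.99). Nceh1, a cholesteryl ester hydrolase, fell from 115 to 62.3 CPM in CDC50A KD (-0.88) and 58.2 in ATP11A/C KD (-0.98), Npc2, which carries lysosomal cholesterol, from 361 to 237 in ATP11A/C KD (-0.61), and Acsl4, which activates fatty acids, from 185 to 114 in ORP5/8 KD (-0.70). Fabp4, Nceh1, Npc2 and Acsl4 were called lower in every KD group. The genes higher in ORP5/8 KD were Pltp (0.64), which transfers phospholipid between lipoproteins, Dgat2 (0.85), which makes triglyceride, the cholesterol exporter Abca1 (0.22) and Cpt1a (0.13), which admits fatty acids to mitochondria, all named after their values were seen. Compared directly, 13 of the 18 were higher and 1 lower in ORP5/8 KD relative to ATP11A/C KD (18.2% and 20.4% of all tested genes), and 10 higher and 1 lower relative to CDC50A KD (27.5% and 29.4%).

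Secreted ligands and bridging proteins went both ways, with 10 of 21 listed genes tested. In ORP5/8 KD 2 rose and 5 fell, in CDC50A KD 2 and 5, and in ATP11A/C KD 3 and 4, so 7 of the 10 were called in each, beside 46.2%, 50.4% and 37.6% of all tested genes. Lpl, lipoprotein lipase, fell from 1252 ± 25.4 CPM to 485 ± 22.4 in ORP5/8 KD (log2 fold change -1.37), 586 ± 28.3 in CDC50A KD (-1.10) and 661 ± 15.4 in ATP11A/C KD (-0.92). Plau, the protease urokinase, fell from 106 to 27.4 CPM in ORP5/8 KD (-1.96), 70.1 in CDC50A KD (-0.60) and 78.5 in ATP11A/C KD (-0.44). Gas6, a TAM receptor ligand that binds phosphatidylserine, rose from 41.4 to 70.5 CPM in ORP5/8 KD (0.77) and fell to 6.93 in CDC50A KD (-2.58) and 11.6 in ATP11A/C KD (-1.83). Mfge8, another phosphatidylserine binder, fell from 57.5 to 44.3 CPM in ORP5/8 KD (-0.38) and rose to 90.0 in CDC50A KD (0.64) and 76.4 in ATP11A/C KD (0.41).

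Adaptors, chaperones and signalling partners of these receptors were divided, with 26 of 28 tested. In ORP5/8 KD 15 were lower and 3 higher (median -0.17), in CDC50A KD 9 and 5 (-0.04), and in ATP11A/C KD 10 and 4 (-0.07). The shares called were 69.2%, 53.8% and 53.8%, beside 46.2%, 50.4% and 37.6% of all tested genes, so that of CDC50A KD was near the background. Dab2 had the largest change of those named, -1.48 in ORP5/8 KD. The kinases Fyn (30.9 to 17.9 CPM, -0.79) and Lyn (186 to 133, -0.48), which act below Cd36, fell in ORP5/8 KD, and Lyn also in ATP11A/C KD (-0.26). Other kinases of the list went both ways in ORP5/8 KD: Syk rose (105 to 152 CPM, 0.54), and the scarce Src fell (1.10 to 0.558 CPM, -0.97). Syk and Src were named after their values were seen. The tetraspanin Cd9, a Cd36 partner, fell in ORP5/8 KD (-0.53), CDC50A KD (-0.67) and ATP11A/C KD (-0.62), whereas the tetraspanin Cd81 rose from 31.99 CPM to 53.9 in CDC50A KD (0.75) and 47.4 in ATP11A/C KD (0.57). Vav3, an exchange factor for small GTPases, fell in CDC50A KD (-0.96), ATP11A/C KD (-0.64) and ORP5/8 KD (-0.54).

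Among the proteases that shed such receptors, 14 of 15 were tested, with 8 lower and 3 higher in ORP5/8 KD, 5 and 4 in CDC50A KD, and 7 and 2 in ATP11A/C KD. The shares called were 78.6%, 64.3% and 64.3%, beside 46.2%, 50.4% and 37.6% of all tested genes. Adam8 fell from 314 CPM to 127 in ORP5/8 KD (log2 fold change -1.30), 162 in CDC50A KD (-0.95) and 165 in ATP11A/C KD (-0.93). Adam17, which sheds many surface receptors, fell from 273 to 140.2 CPM in ORP5/8 KD (-0.96) and by smaller amounts in CDC50A KD (-0.14) and ATP11A/C KD (-0.23), and Adam9 fell in ORP5/8 KD (-0.92), CDC50A KD (-0.47) and ATP11A/C KD (-0.27).

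All 26 listed transcription factors of scavenger receptor genes were tested, with 12 lower and 4 higher in ORP5/8 KD (median -0.11), 10 and 5 in CDC50A KD (-0.06), and 13 and 2 in ATP11A/C KD (-0.24). The shares called were 61.5%, 57.7% and 57.7%, beside 46.2%, 50.4% and 37.6% of all tested genes, so that of CDC50A KD was near the background. Atf3, a stress-induced repressor, fell from 70.9 CPM to 47.7 in ORP5/8 KD (log2 fold change -0.57), 32.4 in CDC50A KD (-1.13) and 38.1 in ATP11A/C KD (-0.90). Rxra, the partner of PPAR and LXR receptors, fell from 23.5 to 6.94 CPM in CDC50A KD (-1.75), 9.24 in ATP11A/C KD (-1.35) and 16.2 in ORP5/8 KD (-0.54). Ets2 fell from 172 to 89.2 CPM in ORP5/8 KD (-0.95), and Mitf from 40.1 to 24.8 in CDC50A KD (-0.69). Maf stood at 2.37 CPM in Parental and at 0.0881 in ORP5/8 KD, 0.0270 in CDC50A KD and 0.0649 in ATP11A/C KD. Ppard and Rxrb rose in every KD group, Ppard most in ATP11A/C KD, from 25.4 to 46.1 CPM (0.86), and Rxrb most in ORP5/8 KD, from 62.0 to 88.3 (0.51). Named for their known role after their values were seen, Spi1 (PU.1) stood at 250.2 ± 19.2 CPM in Parental and fell to 201 ± 16.6 in ORP5/8 KD (-0.31, adjusted p = 0.000343), with 0.12 (0.132) in CDC50A KD and -0.15 (0.0646) in ATP11A/C KD. Pparg, a nuclear receptor of fatty acid derivatives, stood at 0.890 CPM in Parental, 0.169 in ORP5/8 KD, 0.158 in CDC50A KD and 0.0933 in ATP11A/C KD, and was called lower in all 3 groups.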

How the data were processed

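The values deposited by the authors are RSEM expected counts per gene, of which 4.63% carry decimals. Per the submitters' processing notes, the tools were Trim Galore 0.5.0, STAR 2.7.5a, Picard and RSEM, and the genome build was mm10. Expected counts were rounded, and 92 spike-in records summed to 0. Groups follow the labels, and Parental 3 was matched by library name alone. The filterByExpr filter at a minimum count of 10 kept 13107 genes, which hold 99.97% of all counts. All 16 libraries (24020891 to 41543050 counts) were scaled by TMM and fitted with edgeR 4.0.16 (quasi-likelihood) under R 4.3.3, group being the only term, at a biological coefficient of variation of 6.86%. The Benjamini-Hochberg adjustment ran over all tested genes in each of 6 comparisons, and a gene was called under 0.05. The script was tested on simulated data.

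Of the records, 55480 matched GENCODE M21 without the version. The text names the 7 receptors, the targeted genes, and up to 4 called genes with the smallest adjusted p in each list and comparison with Parental, some of them left out. A few genes are withheld and not reported here. The receptors and all gene lists were chosen with earlier results of these data known. Alternatives were DESeq2 size factors, upper-quartile scaling, other low-count filters, the Wald test of DESeq2 1.42.0, the replicate number as a block, fitting only the 8 libraries compared, leaving out each library and, chosen after seeing the data, offsets for GC content and transcript length (loess, span 0.5). No replicates of a group agreed within sampling noise (chi-square per degree of freedom 4.848 to 45.04), so all were kept.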

Additional observations from a re-analysis of the deposited data

Results flagged for a closer look

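In 2 of 24 sets of 4 libraries (6 receptors in 4 groups), 1 library stood apart from the other 3, with its gap to the nearest of them a larger part of the whole range than the Dixon test allows at the 95% level. About 1 in 20 sets would do so by chance. Msr1 in ORP5/8 KD 1 stood at 143 CPM above the others, with a gap of 0.873 of the range. Cd36 in Parental 3 stood at 87.2 CPM, with a gap of 0.869, in a group whose SD was 1.52 CPM. Both genes have AT-rich transcripts, and in both libraries the AT-richest genes (44.7% GC or less) lay highest of its group, by a median log2 deviation of 0.0598 in ORP5/8 KD 1 and 0.0876 in Parental 3. With GC and length offsets Msr1 in ORP5/8 KD 1 came to 130 CPM within a group range of 126 to 134, and Cd36 in Parental 3 to 79.5 within 78.7 to 83.0. The Cd36 range in Parental was 84.0 to 87.2 CPM without offsets, so it widened under them. The offsets were fitted to these same libraries after seeing the data, so they cannot decide why these libraries stood apart. Whether base composition had a part was not tested.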

How the results depend on the processing

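Of the 6 counts of receptors called, 5 stayed within 1.5 times under every alternative that kept all libraries. The count for CDC50A KD against ATP11A/C KD, 0, became 1 with upper-quartile scaling, with DESeq2 size factors, without the low-count filter, with a 1 CPM minimum in 4 libraries or with the replicate block, and 2 with the Wald test of DESeq2 or GC and length offsets. Of all tested genes, those settings in turn called 3361 of 13107, 3424 of 13107, 3399 of 21351, 3370 of 11646, 3361 of 13107, 3701 of 13107 and 4463 of 13107. Leaving out each library gave counts of 4 to 5 for ORP5/8 KD against Parental, 4 for ATP11A/C KD and for CDC50A KD against Parental and for ORP5/8 KD against ATP11A/C KD, 3 to 4 for ORP5/8 KD against CDC50A KD and 0 to 2 for CDC50A KD against ATP11A/C KD. In the fits of that last comparison, 2361 to 3841 of the 13221 to 13262 tested genes were called. The causes were not tested. Of the log2 differences of single receptors over all alternatives, 523 kept their direction and side of the threshold, 18 passed it, 15 lost it and 20 turned sign.

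Upper-quartile scaling raised the share of higher genes among those called from 47.5% to 63.3% in ORP5/8 KD against Parental, from 47.2% to 60.5% against ATP11A/C KD and from 48.4% to 60.7% against CDC50A KD. Under it Mrc1 (-0.63, adjusted p = 0.0601) and Stab1 (-0.25, 0.0707) lost their calls in ORP5/8 KD against Parental, and Lrp1 was called higher in ORP5/8 KD than in CDC50A KD (0.19, 0.0249), as it was in a fit of those groups alone (0.14, 0.0225).

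Signs turned only for log2 differences near 0 that were not called. With GC and length offsets Cd36 came to 0.018 for ATP11A/C KD and 0.034 for CDC50A KD against Parental and 0.016 between them. Scarb1 in ATP11A/C KD came to -0.0029 with the 1 CPM filter, and Msr1 in ORP5/8 KD against CDC50A KD to 0.042 with upper-quartile scaling. Without 1 library, Scarb1 ranged from -0.046 to 0.056 for ATP11A/C KD and -0.0086 to 0.052 for CDC50A KD against Parental and -0.024 to 0.059 between them, and Cd36 between them from -0.095 to 0.023. Msr1 in ORP5/8 KD ranged from -0.00060 to 0.099 against ATP11A/C KD and -0.062 to 0.014 against CDC50A KD, and Lrp1 from -0.15 to 0.020 against ATP11A/C KD.

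Same-numbered libraries showed little common deviation (correlations -0.166 to 0.105). A weak shared effect could go unseen there, and the labels do not say whether the numbers pair the samples. With the number as a block, Lrp1 passed between CDC50A KD and ATP11A/C KD (-0.19, adjusted p = 0.0291), and no other receptor's call changed. The pseudocount alternative for a receptor below the filter was not run, as Marco has no counts. Depth limits Mrc1 most, at 9 to 63 counts a library.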
